A study of Mus musculus with 15 samples.

Results

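The 10 genes described here mark inhibitory interneurons of the hippocampus or classes of them, though not all are exclusive to interneurons. They are Gad1, Gad2, Slc32a1, Sst, Pvalb, Vip, Npy, Cck, Reln and Lamp5. They were matched by symbol. Each symbol matched 1 gene identifier among the 55401 genes counted, and all 10 were among the 19536 genes that passed the filter on low counts. Their RNA was measured by sequencing of whole hippocampi of 15 female mice of 18 to 20 months. Tg2576 mice, labelled Tg2576 +/+, carry a human amyloid precursor protein gene with the Swedish double mutation under a prion protein promoter, which is active in many kinds of neurons. WT littermates, labelled -/-, served as controls. Mice of both genotypes received either DHA (docosahexaenoic acid, an omega-3 fatty acid) by the intragastric route at 450 mg/kg a day for 5 weeks or its vehicle, sesame oil. From these larger treatment groups, 4 mice each were sequenced, except Tg2576 with DHA, of which 3 were.

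Interneurons make the inhibitory transmitter GABA and release it onto pyramidal cells, granule cells and each other. Gad1 and Gad2 encode the glutamate decarboxylases that make GABA, and Slc32a1 encodes the transporter that loads it into synaptic vesicles, so these genes are shared by nearly all GABA neurons. The other members mark classes. Sst (somatostatin) and Pvalb (parvalbumin) label cells born in the medial ganglionic eminence, which contact dendrites and cell bodies of pyramidal neurons respectively. Vip (vasoactive intestinal peptide) and many Cck (cholecystokinin) cells come from the caudal ganglionic eminence. Npy (neuropeptide Y), Reln (reelin, a secreted glycoprotein) and Lamp5 (a membrane protein related to those of lysosomes) are shared by neurogliaform and related cells. Cck is also transcribed by pyramidal neurons and Reln by Cajal-Retzius cells, so those genes are not exclusive to interneurons.

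The libraries held 17372864 to 46596489 counted reads, with a median of 25645977. App, the mouse gene to which reads of the transgene can also be assigned, read 2076 to 2787 CPM (read counts scaled to library size by TMM) in the 7 Tg2576 mice and 1572 to 1787 CPM in the 8 WT mice, without overlap. The libraries also differed in how they read long and short genes. This length tilt, the mean log2 level of long genes (at least 5131 exonic bases) minus that of short genes (at most 2583 bases), each taken relative to the mean of all mice, ran from -0.27 to 0.20. It ran from -0.08 to 0.19 in WT vehicle mice, from -0.13 to 0.11 in WT DHA mice, from -0.24 to 0.06 in Tg2576 vehicle mice and from -0.27 to 0.20 in Tg2576 DHA mice. Tg2576 vehicle mouse 4 and Tg2576 DHA mouse 1 had the lowest values. The members span 566 exonic bases (Npy) to 23738 bases (Reln), and their levels moved with this tilt, as described further on.

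The peptide genes Sst, Cck and Npy were the most abundant members per length, whereas Vip, also a peptide gene, ranked 9 of 10. The mean over 15 mice was 326 ± 79.1 CPM per kb (SD) for Sst, 227 ± 39.8 for Cck and 87.5 ± 23.9 for Npy. Gad1 followed at 40.4 ± 3.93, Pvalb at 39.8 ± 10.8, Slc32a1 at 29.3 ± 4.85 and Gad2 at 20.4 ± 3.604 CPM per kb. Lamp5 read 15.5 ± 4.95, Vip 5.63 ± 0.97 and Reln 2.71 ± 0.81 CPM per kb. Of neighbours in this order, the ranges of Cck and Npy and those of Lamp5 and Vip did not overlap. Sst was above Cck within each of the 15 mice although their ranges overlapped. Gad1 was above Pvalb in 8 of 15 mice only, so their order is not set by these data. Per length, Sst lay above 99.7% of the genes tested and Cck above 99.4%, whereas Reln lay above 47.8%. Gad1 varied least between mice, with a coefficient of variation of 9.73%, and Lamp5 most, with 31.9%. The plot of CPM by mouse shows all 10 members.

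**Figure D1:**
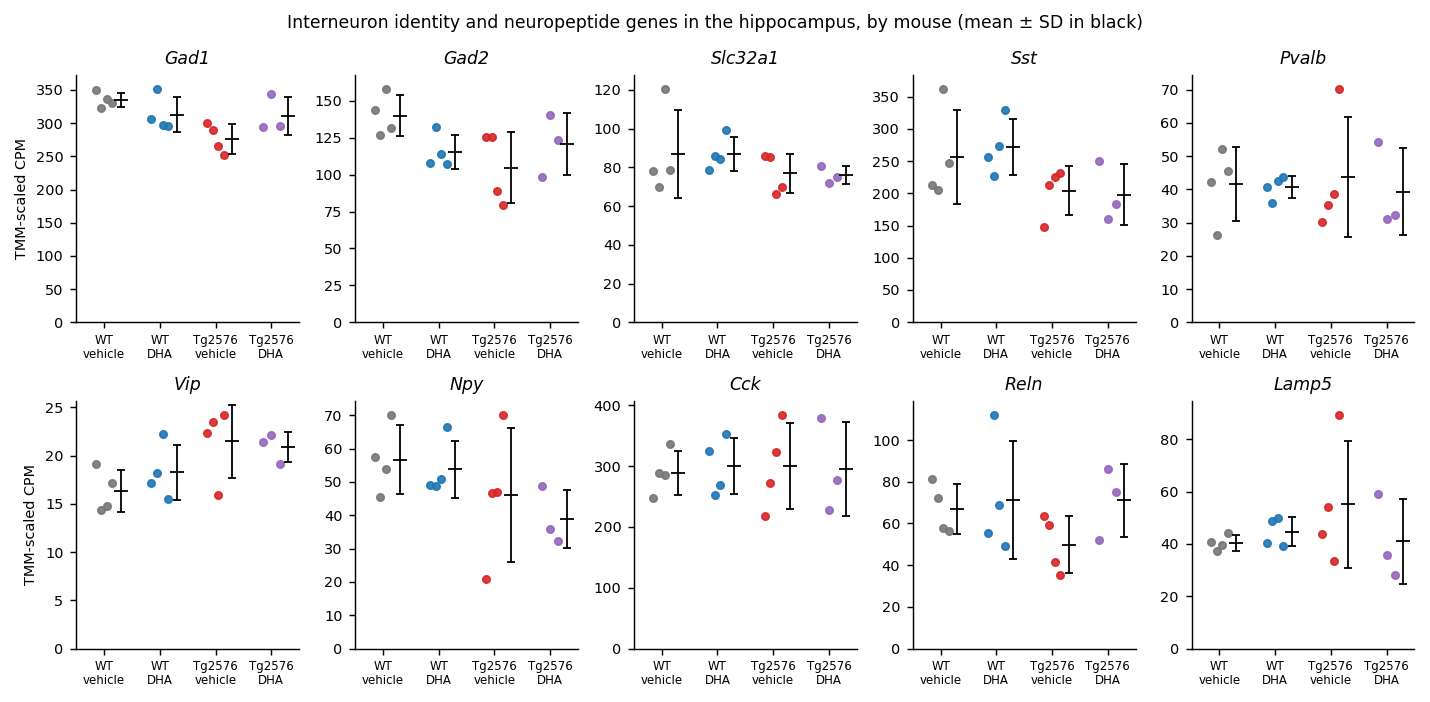
Each panel plots TMM-scaled CPM of 1 gene (vertical axis, from 0) in the 15 mice by group, with 1 point per mouse and the mean ± SD of the group in black. For Gad1 the 4 Tg2576 vehicle mice sit between 251 and 300.5 CPM, all below the 4 WT vehicle mice, and for Gad2 the same groups do not overlap.

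Upstream sequences are shown for Gad1, Gad2, Sst and Vip, on which the genotype results turn. They are the 100 bases before the RefSeq transcript start (GRCm38.p6), written 5′ to 3′ on the strand of the gene. Capitals mark the short form of the cAMP response element, TGACG or its reverse complement CGTCA, the core of the site that CREB family factors bind. The window of Gad1 holds none.
Gad1, chr2:70562029-70562128, plus strand: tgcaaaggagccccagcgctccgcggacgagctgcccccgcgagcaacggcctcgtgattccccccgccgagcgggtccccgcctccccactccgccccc
Gad2, chr2:22622227-22622326, plus strand: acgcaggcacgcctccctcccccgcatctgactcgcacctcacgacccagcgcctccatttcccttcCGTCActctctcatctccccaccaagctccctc
Sst, chr16:23890845-23890944, minus strand: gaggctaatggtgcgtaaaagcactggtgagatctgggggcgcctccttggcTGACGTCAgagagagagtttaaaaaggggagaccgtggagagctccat
Vip, chr10:5639118-5639217, plus strand: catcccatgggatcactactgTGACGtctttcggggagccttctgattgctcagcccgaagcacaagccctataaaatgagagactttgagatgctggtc

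RefSeq promoters of 300 bases (250 before the start and 50 after it) were found for all 10 members, in 12 entries, since Pvalb and Lamp5 have 2 starts each. The full palindrome TGACGTCA, which contains the short form on both strands, was found in the promoter of Sst only, 48 bases before its start, against 1.79% of 32851 mouse promoters. The short form was found in Gad2, Sst, Vip and Cck, against 20.8% of all promoters. The TATA box letters TATAAA, also searched on both strands, were found in Gad1, 141 bases before the start, and in Vip, nearest at 30 bases, against 13.6% of promoters. These matches describe letters and not binding.

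To ask how the transgene bore on the GABA synthesis genes, Tg2576 and WT mice were compared under vehicle. Gad1 and Gad2 RNA were both lower in Tg2576 vehicle mice, and Slc32a1 was not called. In whole tissue, fewer cells of a type and less RNA per cell cannot be told apart. Gad1 read 349.6, 324, 337 and 330.1 CPM in the WT vehicle mice and 300.5, 289, 265 and 251 CPM in the Tg2576 vehicle mice. Every Tg2576 mouse was below every WT mouse. The fitted log2 fold change was -0.28 ± 0.08 (SE), a level 17.4% lower, with an unadjusted p of 0.0041 and an adjusted p of 0.261 in the edgeR test over all genes. Gad2 read 144, 127, 158 and 132 CPM in WT vehicle mice and 125, 125, 88.9 and 79.1 CPM in Tg2576 vehicle mice. These groups were also apart, though by 126.6 against 125.4 CPM at the edge, and Tg2576 vehicle mice 3 and 4 were much lower than mice 1 and 2. Its log2 fold change was -0.42 ± 0.14, with an unadjusted p of 0.009996, just inside the threshold of 0.01, and an adjusted p of 0.323. An exact permutation test of log2 CPM gave p = 0.0286 for each of these genes, the smallest that 4 against 4 mice can give. The share of counts from mitochondrial genes moved with this contrast. It was 2.18% in Tg2576 vehicle mouse 1 and 3.11%, 3.37% and 3.17% in mice 2, 3 and 4, against 1.97% to 2.88% in the 8 WT mice and 2.69% to 2.79% in the Tg2576 DHA mice. Mice 3 and 4, the lowest of the vehicle mice for both genes, also had the lowest length tilts of these mice, at -0.0991 and -0.236. The part of the mitochondrial share in these results was not tested.

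Slc32a1 read 78.1, 69.9, 121 and 78.7 CPM in WT vehicle mice and 85.7, 85.5, 66.3 and 70.1 CPM in Tg2576 vehicle mice. One WT mouse, number 3, stood far above all others and the groups overlapped. The log2 fold change of -0.18 ± 0.14 (adjusted p = 0.698 in edgeR) became 0.03 when that mouse was left out. Slc32a1 shares 697 bases, 24.9% of its exonic length, with Gm14205 on the opposite strand, and the counting used no strand option, so reads of this pair cannot be told apart.

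Of the 10 members, 2 were called lower and 0 higher in Tg2576 vehicle mice at an unadjusted p under 0.01, where 1.93% of all genes tested were called lower and 3.09% in either direction. Groups of 2 members did not overlap, where 5.16% of all genes did so. The median log2 fold change of the members was -0.23, against 3.04e-04 for all genes. Single mice decided both calls. With each mouse left out in turn, Gad1 was called in 12 of 15 fits, and not without Tg2576 vehicle mouse 4 (unadjusted p of 0.0227), Tg2576 vehicle mouse 3 (0.0142) or WT vehicle mouse 1 (0.0136). Gad2 was called in 4 of these fits, and its unadjusted p was highest without Tg2576 vehicle mouse 4, at 0.0512.

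Under DHA, the GABA synthesis genes showed no such difference. Gad1 read 307, 352, 297 and 295 CPM in WT DHA mice and 294, 344 and 295 CPM in Tg2576 DHA mice, and Gad2 read 108, 132, 114 and 107 CPM and 98.5, 140.2 and 123 CPM. In both genes the groups overlapped widely, and the fitted log2 fold changes were -0.01 ± 0.09 and 0.07 ± 0.16. Whether the genotype difference itself changed with DHA was tested by the interaction term. It was 0.27 ± 0.12 for Gad1 (unadjusted p of 0.0426, adjusted p = 0.845 in edgeR) and 0.49 ± 0.21 for Gad2 (unadjusted p of 0.0356, adjusted p = 0.845), neither past the threshold of 0.01. In WT mice Gad2 was 17.6% lower with DHA than with vehicle (log2 fold change -0.28 ± 0.14, unadjusted p of 0.0702, adjusted p = 0.863), and Gad1 6.62% lower (-0.10 ± 0.08, adjusted p = 0.889). In Tg2576 mice the log2 fold change with DHA was 0.17 ± 0.09 for Gad1 and 0.21 ± 0.16 for Gad2 (adjusted p = 0.999 for each). Of 10 members, 0 were called for the interaction at an unadjusted p under 0.01 by edgeR, DESeq2 or limma-voom, where edgeR called 0.445% of all genes higher and 0.384% lower. Gad1 and Gad2 were the 2 with an unadjusted p under 0.05 in each of these tools. In edgeR with 1 mouse left out, it ran from 0.0141 to 0.171 for Gad1 and from 0.0119 to 0.132 for Gad2. Both were highest without Tg2576 DHA mouse 2. With the trend on gene length taken off, as described further on, it was 0.0709 for Gad1 and 0.0337 for Gad2.

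**Figure D2:**
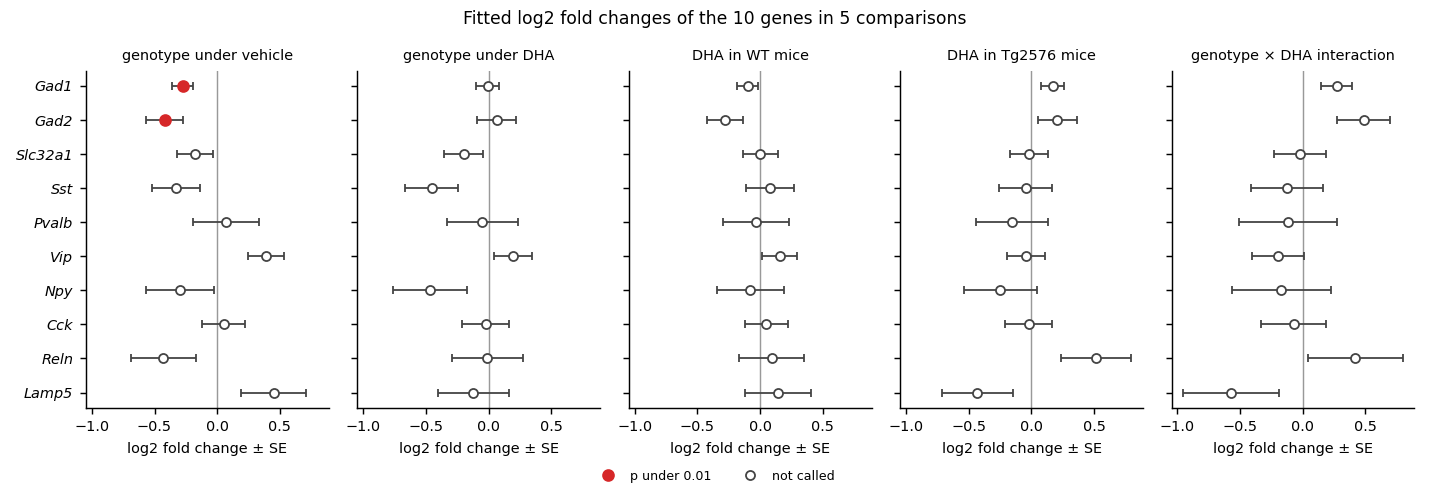
Fitted log2 fold changes ± SE (horizontal axis) of the 10 genes in each of 5 comparisons, Tg2576 against WT or DHA against vehicle. Filled points passed an unadjusted p of 0.01, which only Gad1 and Gad2 did, in the comparison of genotypes under vehicle.

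Sst read lower in Tg2576 than in WT mice under both treatments, without passing the threshold in either. It read 212, 205, 362 and 247 CPM in WT vehicle mice and 256, 226, 274 and 329 CPM in WT DHA mice. Tg2576 vehicle mice read 148, 212, 225 and 231 CPM and Tg2576 DHA mice 250.5, 160.4 and 183 CPM. The lowest mouse of all was a Tg2576 mouse and the highest 4 were WT mice, but the groups overlapped. The log2 fold change was -0.33 ± 0.19 under vehicle (unadjusted p of 0.109, adjusted p = 0.574 in edgeR, with an unadjusted p of 0.506 without WT vehicle mouse 3, the highest of all) and -0.46 ± 0.21 under DHA (unadjusted p of 0.0471, adjusted p = 0.719). Taken over both treatments, a contrast added after the data were seen, it was -0.39 ± 0.14, or 23.8% lower (unadjusted p of 0.0149, adjusted p = 0.296). Pvalb, the other medial ganglionic eminence marker, ranged from 26.2 to 52.2 CPM in WT vehicle mice and from 30.3 to 70.4 CPM in Tg2576 vehicle mice, the highest of which was mouse 4. Its fitted differences were within 1 SE of 0 in all 5 comparisons.

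The length tilt was strongest in these genes. With the group mean taken off, Pearson's r of log2 CPM with the tilt over 15 mice was -0.875 for Sst (721 exonic bases), -0.865 for Pvalb (1041 bases), -0.83 for Cck (1305 bases) and -0.65 for Npy (566 bases). In the long genes it had the other sign, at 0.69 for Gad1 (7639 bases), 0.66 for Gad2 (5876 bases) and 0.83 for Reln. Genes of middle length moved less with it, at -0.33 for Slc32a1, -0.52 for Lamp5 and 0.09 for Vip. These coefficients are descriptions, since the tilt is computed from the same libraries. What made the libraries differ in tilt was not tested.

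**Figure D3:**
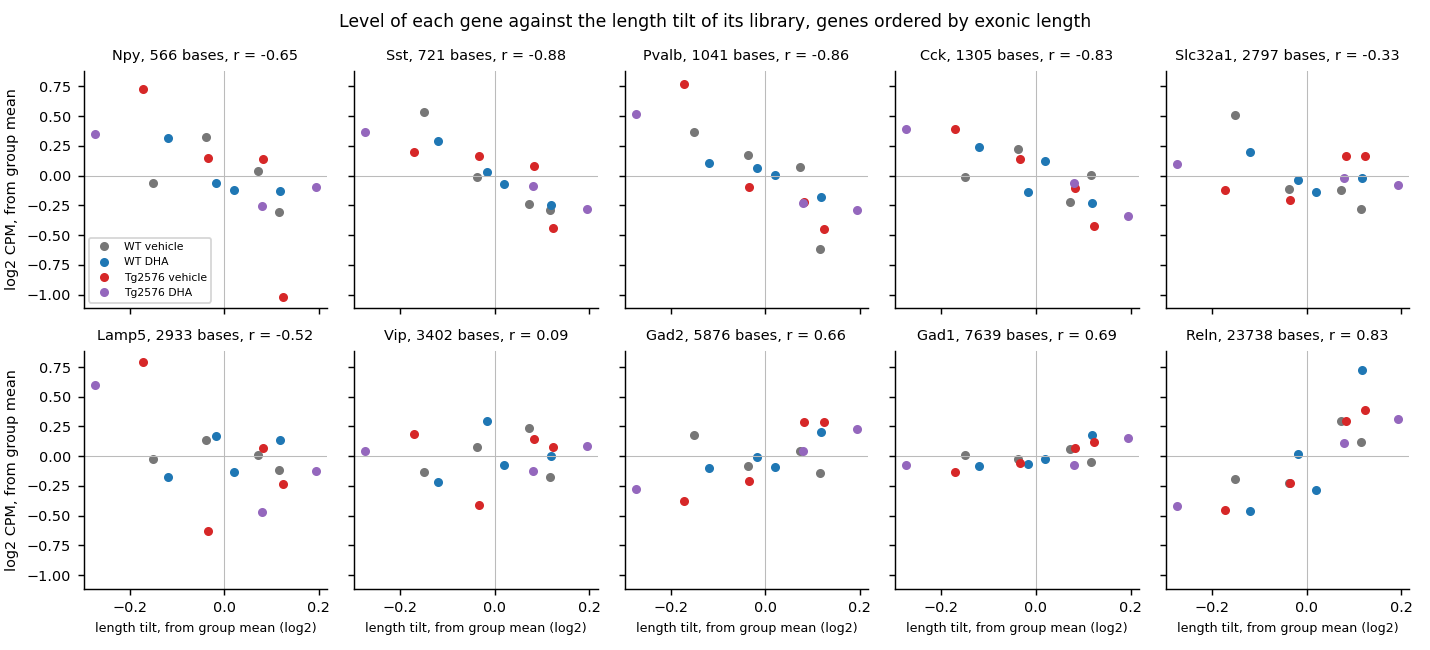
Each panel plots log2 CPM of 1 gene (vertical axis) against the length tilt of the library (horizontal axis), both as differences from the mean of the group, with 1 point per mouse coloured by group and panels ordered by exonic length. The points fall from left to right in the short genes Npy, Sst, Pvalb and Cck and rise in the long genes Gad2, Gad1 and Reln, with r from -0.875 for Sst to 0.83 for Reln.

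The fit was therefore repeated with the trend of log2 level on exonic length taken off each library as an offset, an alternative chosen after the data were seen. The tilt then ran from -0.06 to 0.05. Gad1 remained lower in Tg2576 vehicle mice with a log2 fold change of -0.21 and an unadjusted p of 0.00667, and Gad2 with -0.385 and 0.00886, although the values of Gad2 by mouse now overlapped. Sst was now called in both comparisons of genotypes. Its log2 fold change was -0.42 ± 0.14 under vehicle (unadjusted p of 0.00629, adjusted p = 0.287 in edgeR) and -0.44 ± 0.15 under DHA (unadjusted p of 0.00822, adjusted p = 0.438). Over both treatments it was -0.43 ± 0.10, or 25.9% lower, with an unadjusted p of 4.80e-04 and an adjusted p of 0.0699. On this scale each of the 7 Tg2576 mice lay below each of the 8 WT mice, at 7.147 to 7.743 against 7.746 to 8.371 log2 CPM, so that the nearest mice of the genotypes were almost level, where 0.215% of all genes were lower without overlap. An exact permutation of genotype within each treatment gave p = 8.16e-04, the smallest that 2450 arrangements can give, against p = 0.0359 without the offset.

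With the offset, 3 of 10 members were called lower under vehicle (Gad1, Gad2 and Sst, against 1.79% of all genes), 1 under DHA (Sst, against 0.983%) and 1 over both treatments (Sst, against 2.03%). The interaction term of Sst was -0.02 ± 0.20. The fitted differences of Sst with DHA were 0.0152 in WT mice and -0.00353 in Tg2576 mice on this scale, with standard errors of 0.14 and 0.15. Reln in Tg2576 mice was the member with the lowest p for DHA on this scale (0.42 ± 0.18, unadjusted p of 0.0314, adjusted p = 0.997), and its DHA mice lay above its vehicle mice without overlap, as for 2.01% of all genes on this scale. Between genotypes under vehicle, Gad1 and Sst were each below the WT mice in every Tg2576 mouse with the offset, as for 2.87% of all genes. Under DHA the same held for Sst, Slc32a1 and Npy, as for 5.38% of all genes, although Slc32a1 (unadjusted p of 0.203, adjusted p = 0.757) and Npy (unadjusted p of 0.131, adjusted p = 0.692) were not called in edgeR.

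**Figure D4:**
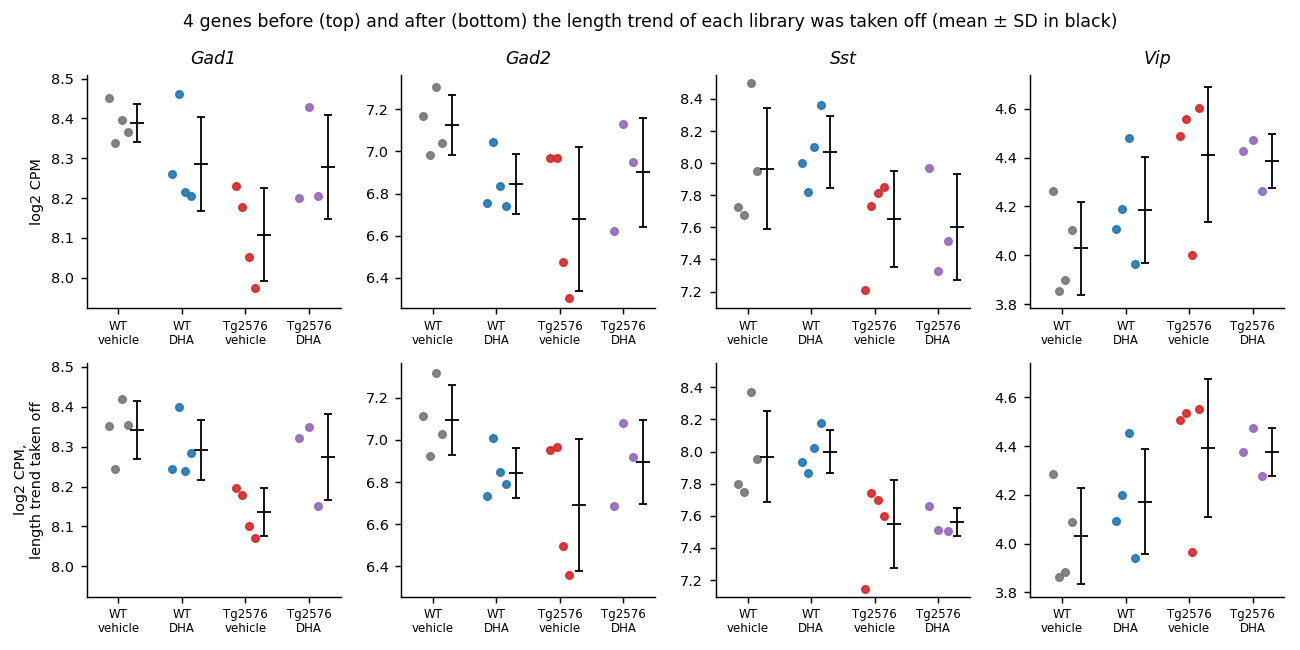
Log2 CPM of Gad1, Gad2, Sst and Vip (vertical axis) in the 15 mice by group, as measured in the top row and with the length trend of each library taken off in the bottom row, with the mean ± SD of each group in black. In the bottom row all 7 Tg2576 mice lie below all 8 WT mice for Sst, and the Tg2576 vehicle mice stay below the WT vehicle mice for Gad1.

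Vip, the marker of interneurons that mostly inhibit other interneurons, read higher in Tg2576 than in WT mice, without being called in edgeR. It read 19.1, 14.4, 14.8 and 17.1 CPM in WT vehicle mice and 22.4, 23.5, 15.9 and 24.2 CPM in Tg2576 vehicle mice. Of the latter, 3 were above all WT vehicle mice and mouse 3 was inside their range. The log2 fold change was 0.39 ± 0.14 (unadjusted p of 0.0135, adjusted p = 0.345 in edgeR), just outside the threshold, and it was called by DESeq2 (unadjusted p of 0.00781) but not by limma-voom (0.0202). Under DHA, Vip read 17.2, 18.1, 22.2 and 15.5 CPM in WT mice and 21.4, 22.1 and 19.1 CPM in Tg2576 mice, with a log2 fold change of 0.20 ± 0.15 (adjusted p = 0.844). Over both treatments it was 0.29 ± 0.10 (unadjusted p of 0.0120, adjusted p = 0.274), and with the length offset 0.28 ± 0.10 (adjusted p = 0.255). Vip rested on the fewest reads of all members, 297 to 888 per mouse.

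Beside the RNA shared by GABA neurons, the log2 ratio of Vip to the geometric mean of Gad1, Gad2 and Slc32a1 was -3.65 to -3.04 in WT vehicle mice and -2.86 to -2.20 in Tg2576 vehicle mice, without overlap. Gad1 and Gad2, which were themselves lower in these Tg2576 mice, are part of the divisor and so raise this ratio. Vip CPM alone overlapped between these groups (p = 0.0857 in the exact permutation test). Under DHA the Vip ratios were -3.24 to -2.68 in WT and -2.87 to -2.63 in Tg2576 mice, which overlapped. The same ratio of Sst ran from 0.43 to 0.96 in WT vehicle mice and from 6.07e-04 to 1.05 in Tg2576 vehicle mice. These ranges overlapped.

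Npy had the same sign as Sst but a wider spread. It read 57.5, 45.4, 53.8 and 70.1 CPM in WT vehicle mice, 48.9, 48.7, 51.0 and 66.4 CPM in WT DHA mice, 20.8, 46.6, 46.9 and 70.1 CPM in Tg2576 vehicle mice and 48.8, 35.8 and 32.1 CPM in Tg2576 DHA mice. Tg2576 vehicle mouse 1 was the lowest of all 15 mice, and mouse 4 of the same group was level with the highest WT mouse. The log2 fold change was -0.30 ± 0.27 under vehicle and -0.47 ± 0.29 under DHA, and -0.38 ± 0.20 over both (adjusted p = 0.499 in edgeR). With the length offset it was -0.43 ± 0.18 over both treatments (unadjusted p of 0.0341, adjusted p = 0.355), and the exact permutation within treatments gave p = 0.00898, against p = 0.0506 without the offset.

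Cck did not separate any groups. Its group means lay between 289.6 and 300.1 CPM, and its fitted differences were within 1 SE of 0 in all 5 comparisons. Within groups it was spread from 219 to 384.5 CPM in Tg2576 vehicle mice, in which mouse 1 was lowest and mouse 4 highest.

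Reln ranged from 56.6 to 81.4 CPM in WT vehicle mice, from 35.3 to 63.5 in Tg2576 vehicle mice and from 52.0 to 86.2 in Tg2576 DHA mice. It was lower in Tg2576 than in WT under vehicle by a log2 fold change of -0.43 ± 0.26 (adjusted p = 0.590 in edgeR), and 0.51 ± 0.28 higher with DHA than with vehicle in Tg2576 mice (adjusted p = 0.999), neither called. Lamp5 ranged from 37.1 to 44.2 CPM in WT vehicle mice and from 33.3 to 89.3 CPM in Tg2576 vehicle mice, with its highest value again in mouse 4. Its log2 fold change was 0.45 ± 0.26 (adjusted p = 0.571), and -0.43 ± 0.28 with DHA in Tg2576 mice (adjusted p = 0.999).

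DHA itself called none of the members. Of 10 members, 0 passed an unadjusted p of 0.01 in WT mice, where 1.38% of all genes did, and 0 in Tg2576 mice, where 0.353% did, by edgeR, DESeq2 and limma-voom alike. On log2 CPM as measured, the DHA and vehicle mice of a genotype overlapped for each member, where 5.02% of all genes did not overlap in WT mice and 3.21% in Tg2576 mice. At an unadjusted p under 0.05 edgeR gave 0 members in each genotype, and DESeq2 gave 1, Reln in Tg2576 mice. The comparison of genotypes under DHA also called 0 of 10 in each of these tools, where edgeR called 1.75% of all genes, and 1, Sst, had a p under 0.05. On log2 CPM as measured, none of the members separated these groups, where 8.56% of all genes did. Over both treatments edgeR and limma-voom called 0 members, where edgeR called 3.85% of all genes, and DESeq2 called 2, Vip and Sst. In edgeR 3 members, Gad1, Vip and Sst, had a p under 0.05 there.

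Whether the members varied together from mouse to mouse was asked within the groups, with group means taken off, over 45 pairs and 15 mice. Of the 45 Pearson coefficients, 24 were positive. A permutation p stayed under 0.05 after Benjamini-Hochberg adjustment over the pairs for 18, 11 of them positive. Permutations ran over all 15 mice and not within groups, with no allowance for the group means taken off. The permutation p-values are therefore somewhat too small. The long genes Gad1 and Gad2 varied together (r = 0.84, adjusted permutation p = 0.00101, and Spearman's rho = 0.81, adjusted p = 0.00252), and r was 0.84 without the 2 mice farthest from the median of Gad1. The short genes Sst and Pvalb also did (r = 0.74, adjusted permutation p = 0.00702, and rho = 0.80, adjusted p = 0.00321), with r = 0.69 without 2 mice. Cck and Reln ran against each other (r = -0.89, adjusted permutation p = 4.50e-04, and rho = -0.925, adjusted p = 4.50e-04), with r = -0.88 without 2 mice. Gad1 and Sst had r = -0.58 (adjusted permutation p = 0.0580) and rho = -0.58 (adjusted p = 0.0685), which became r = -0.475 without 2 mice.

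After the length trend was taken off, 4 of the 45 pairs had an adjusted permutation p under 0.05. The same permutations were used, so these p-values are also somewhat too small. Gad2 with Slc32a1 went from r = 0.46 to r = 0.71 (adjusted p = 0.0336), and Gad1 with Slc32a1 from 0.16 to 0.55 (adjusted p = 0.132). Gad2 with Reln was at 0.70 (adjusted p = 0.0336), and Cck opposed Gad2 (r = -0.825, adjusted p = 0.0130) and Reln (r = -0.76, adjusted p = 0.0218). Gad1 with Sst went from -0.58 to 0.11, and Sst with Pvalb from 0.74 to 0.51 (adjusted p = 0.186).

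**Figure D5:**
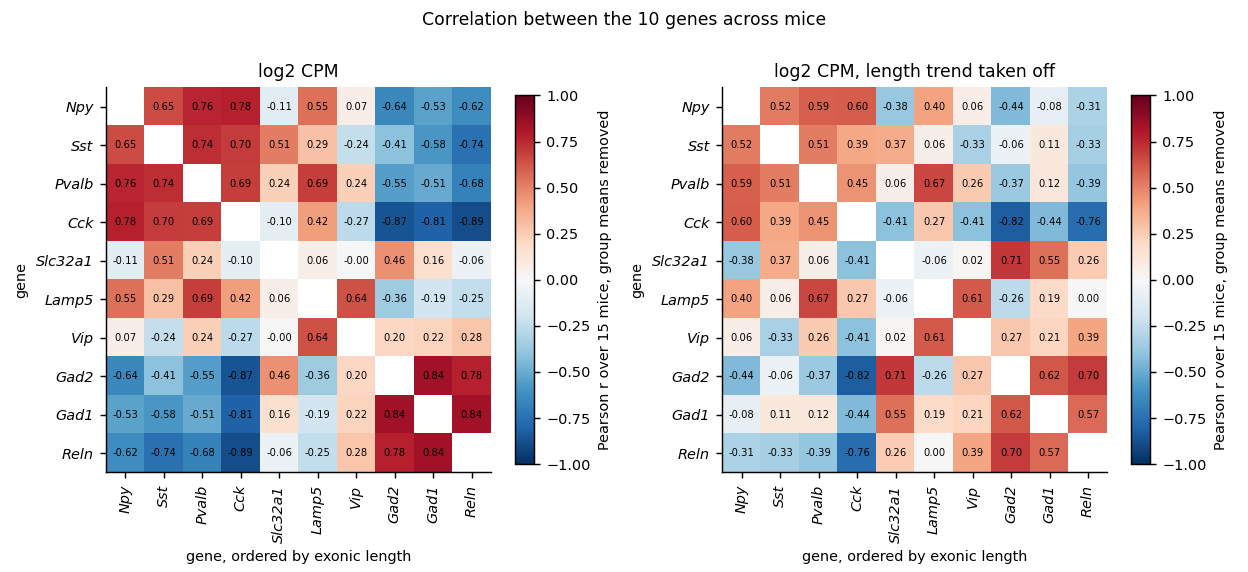
Pearson r between the 10 genes over 15 mice with group means removed (colour, from -1 to 1, with the value in each cell), on log2 CPM at left and with the length trend taken off at right, genes ordered by exonic length. At left the short genes Npy, Sst, Pvalb and Cck and the long genes Gad2, Gad1 and Reln form blocks with negative values between them. Slc32a1 and Vip have values of both signs with the short genes. At right Gad1 with Sst is at 0.11 and Gad2 with Slc32a1 at 0.71.

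The genes whose pattern over the 15 mice was most like that of a member were named by the highest Pearson r of log2 CPM with group means removed, as a description. For Gad1 they were Zfp618 (r = 0.96), Camk2d and Glce, for Sst Metrn (r = 0.96), Bod1 and Pkm, and for Cck Thap7 (r = 0.97), Olfm1 and Lin7b. Those of Gad1 have 6828 to 22493 exonic bases. Those of Cck have 1463 to 3553 bases. Length did not match in all cases. Those of Sst, itself 721 bases, have 1644 to 5001 bases. The genes most like Npy, itself 566 bases, have 2795 to 7067 bases.

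Other genes of the GABA pathway and of the interneuron classes were read from lists chosen by function. Beside the counts of these and later lists stand the shares of all genes called in either direction. They were 3.09% under vehicle, 1.75% under DHA, 1.38% with DHA in WT mice and 0.353% with DHA in Tg2576 mice. Of 6 genes for GABA uptake, breakdown and supply, 1 was called under vehicle. Slc6a11, the GABA transporter of astrocytes, was 102 to 119.8 CPM in Tg2576 vehicle mice and 133 to 146 CPM in WT vehicle mice, without overlap, with a log2 fold change of -0.35 ± 0.08 (unadjusted p of 5.78e-04, adjusted p = 0.170 in edgeR). It stayed called whichever of the 15 mice was left out, and with the length offset (unadjusted p of 3.15e-04). Abat, which breaks GABA down, was at -0.27 ± 0.10 (adjusted p = 0.346). The median of these 6 genes was -0.16 under vehicle and -0.02 under DHA.

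Among 19 of 20 listed genes of the medial ganglionic eminence lineage that were tested, 15 had a negative sign under vehicle, with a median of -0.11, and 1 was called. Elfn1, a synaptic adhesion protein of somatostatin interneurons, had a log2 fold change of -0.38 ± 0.12 (unadjusted p of 0.00576, adjusted p = 0.289), and was called in 10 of 15 fits with 1 mouse left out (unadjusted p of 0.0313 without Tg2576 vehicle mouse 4). Nos1, nitric oxide synthase, was at -0.41 ± 0.16 (adjusted p = 0.382) and Kcnc1, a potassium channel of fast-spiking cells, at -0.24 ± 0.09 (adjusted p = 0.362). Under DHA 8 of the 19 were negative and 0 were called. Among 11 genes of the caudal lineage 0 were called under vehicle, with a median of 0.02. Id2 was higher in Tg2576 than in WT mice under DHA (0.45 ± 0.15, adjusted p = 0.560, called in 8 of 15 fits with 1 mouse left out), and Adarb2 fell with DHA in WT mice (-0.43 ± 0.13, adjusted p = 0.608, called in 10 of 15 such fits), in which its groups did not overlap. All 8 perineuronal net genes were negative under vehicle, with a median of -0.20, against 3.04e-04 for all genes. Of them 1, Ncan (neurocan), was called at -0.27 ± 0.09 (adjusted p = 0.320 in edgeR), a call lost with the length offset (unadjusted p of 0.0668). The signs counted in these lists come from the fit without that offset. The median length tilt was -0.04 in Tg2576 vehicle mice and 0.09 in WT vehicle mice. Its part in these signs was not tested.

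Of 15 other neuropeptide precursors 1 was called under vehicle. Tac2, the precursor of neurokinin B, was higher in Tg2576 vehicle mice (0.75 ± 0.25, adjusted p = 0.307) and higher with DHA in WT mice (0.82 ± 0.25, adjusted p = 0.600), both against the same WT vehicle mice, which read 1.84 to 4.06 CPM and overlapped both other groups. With 1 mouse left out it was called in 9 and 10 of 15 fits. Trh was also called with DHA in WT mice (2.27 ± 0.745, adjusted p = 0.675), but in only 6 of 15 fits with 1 mouse left out and 3 of 8 other settings, with an unadjusted p of 0.192 without WT DHA mouse 2. Cort, which encodes cortistatin, a peptide related to somatostatin, was singled out after its values were seen. Under vehicle Cort differed between the genotypes by -0.74 ± 0.26 on the log2 scale (adjusted p = 0.337), under DHA by -0.66 ± 0.29 (adjusted p = 0.697) and over both treatments by -0.70 ± 0.19 (unadjusted p of 0.00214, adjusted p = 0.155). The abundant granule protein Chgb was at -0.16 ± 0.13 under vehicle. None of 6 peptide processing genes was called in any of the 5 comparisons, among them Cpe, which trims peptide precursors, at 0.06 ± 0.08 under vehicle.

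Receptors of these peptides and of reelin numbered 15, of which 14 were tested, and 0 were called between the genotypes under vehicle or under DHA. Sstr2, a somatostatin receptor, was higher with DHA in WT mice, at 12.85 to 23.8 CPM against 7.76 to 12.5 CPM without overlap (log2 fold change 0.78 ± 0.22, unadjusted p of 0.00195, adjusted p = 0.540, not called without WT DHA mouse 2). In Tg2576 mice it was at 0.15 ± 0.23 with DHA, and the interaction term was -0.63 ± 0.32 (adjusted p = 0.845).

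Markers of other cells were read beside these results. Dentate granule cell genes summed to 394 to 479 CPM in WT vehicle mice and 291 to 374 CPM in Tg2576 vehicle mice, without overlap, against 294 to 482 and 285 to 306 CPM under DHA, and 1 of 7, Prox1, which caudal interneurons also express, was called lower under vehicle (-0.455 ± 0.12, adjusted p = 0.198). Prox1 was also called lower with DHA in WT mice (-0.37 ± 0.12, adjusted p = 0.669), and Lct in Tg2576 mice under DHA (-0.98 ± 0.31, adjusted p = 0.560). Over both treatments 4 of these 7 genes, Lct, Prox1, Plk5 and Dsp, were called lower in Tg2576 mice, where 374 of the 19536 genes tested were. The median log2 fold change of the 7 was -0.367. Pyramidal neuron genes of the CA fields summed to 1385 to 1685 and 1393 to 1549 CPM, with 0 of 8 called under vehicle. Under DHA, Wfs1 was called lower in Tg2576 than in WT mice. With DHA in WT mice 2 of the 8 were called higher. These were Wfs1, with a mean of 222 CPM against 179 CPM, and Mpped1, with 302 against 253 CPM. Mean Wfs1 was 169 CPM with DHA and 162 CPM with vehicle in Tg2576 mice. Genes of striatal projection neurons (66.2 to 132 CPM over all mice), thalamus (43.4 to 76.2), subiculum (70.6 to 129), neocortical excitatory neurons (113 to 229) and Cajal-Retzius cells (17.5 to 32.9) were low, and only Prkcd and Gpr6 of them were called, Prkcd lower in Tg2576 DHA mice against either other group and Gpr6 higher with DHA in WT mice. Choroid plexus genes summed to 89.0 to 3716 CPM in WT vehicle mice, 61.0 to 5821 in WT DHA mice, 141 to 3160 in Tg2576 vehicle mice and 3096 to 5148 in Tg2576 DHA mice, with 0 of 6 called. The astrocyte gene Gfap was higher in Tg2576 mice under vehicle (1.02 ± 0.18, adjusted p = 0.0766) and under DHA (1.01 ± 0.19), and P2ry12 and Cx3cr1 of microglia under DHA. The part of these cells in the results on the members was not tested.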

How the data were processed

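Gene counts of 15 hippocampal RNA libraries, 1 per mouse, were used. Per the labels and the study's methods, the authors checked reads with FastQC 0.11.8, aligned them to GRCm38 with STAR 2.6.1c and counted reads per gene with featureCounts 1.6.0 on GENCODE M25. The deposited counts are whole reads per gene, not normalized, counted with no strand option. The labels and the methods name different library kits, so the kit is not stated here. Symbols came from a GENCODE M21 table.

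TMM-scaled CPM and edgeR 4.0.16 quasi-likelihood tests (R 4.3.3) were computed over all 4 groups, after filterByExpr with a minimum count of 10, with Benjamini-Hochberg adjustment over all genes tested. A call is an unadjusted p under 0.01, the threshold of the study. DESeq2 1.42.0 and limma 3.58.1 (voom) were alternatives. Exact permutation tests were two-sided, on log2 CPM with a prior count of 2. The length offset was a lowess trend (span 0.3) of log2 deviation on log2 exonic length. The statistics were tested on simulated counts. Named genes were the members, list genes called in 1 of the 5 comparisons or among the most abundant 3 of a list per length, and the 3 genes most like each member. Cort and Dsp, list genes called only over both treatments, were named outside this rule. A gene that this rule names is not reported here. Members and lists were chosen with earlier results of these data known. No source says more of the replicates than that they are separate mice.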

Additional observations from a re-analysis of the deposited data

Results flagged for a closer look

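Dixon's criterion for a single sample far from its group was applied to 27 genes in each of the 3 groups of 4 mice, 81 groups in all, and marked 2, where chance marks about 1 in 20. Npy read 66.4 CPM in WT DHA mouse 4, against 48.7 to 51.0 CPM in the other mice of that group. Trh, the precursor of thyrotropin-releasing hormone, read 7.73 CPM in WT DHA mouse 2, against 0.576 to 1.34 CPM in the others.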

How the results depend on the processing

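Under vehicle, the 2 members called became 1 (Gad1) with DESeq2 size factors, with at least 10 counts in every mouse or with only the groups compared, and 0 with library sizes without TMM. They became 3 with DESeq2 or with no filter on low counts (Vip added) and with the length offset (Sst added), and stayed at 2 with limma-voom. Leaving out 1 mouse gave 0 to 2, with 0 without Tg2576 vehicle mouse 4, and with Vip alone without Tg2576 vehicle mouse 3 or WT vehicle mouse 1. Under DHA the length offset gave 1 (Sst) in place of 0. Over both treatments the count of 0 became 1 without TMM or without the filter on low counts (Vip), 1 with the length offset (Sst) and 2 with DESeq2, and was 0 to 1 with 1 mouse left out. The log2 fold change of Slc32a1 under vehicle was -0.255 to 0.0252 with 1 mouse left out, and above 0 only without WT vehicle mouse 3. The causes were not tested, except that a left-out mouse leaves fewer samples. Among fits of fold changes that lay more than 1 SE from 0, 674 kept direction and side of the threshold. Of the rest, 15 passed it only in the alternative, 19 only in the reported fit, and 1 reversed direction. Smaller ones were not counted, and some changed sign, such as Gad1 under DHA (below 0 in 19 of 25 fits), Gad2 under DHA (2 of 25) and Sst with DHA in WT mice (3 of 25).

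The RNA showed no sign that the replicate numbers pair the mice. Over 21 pairs of same-numbered mice the median correlation of deviations was 0.0117, and 4 were over 0.1. Over 63 pairs with different numbers the median was 0.00305, and 12 were over 0.1. A pairing that left no mark on the RNA cannot be seen in this way. With the replicate number as a block, 2 members were called under vehicle, Gad1 (unadjusted p of 0.00312) and Gad2 (0.00506) in edgeR. Exact tests could not go below 0.0286 for 4 against 4 mice or 0.0571 for 4 against 3.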
